A study of Homo sapiens with 9 samples.

Results

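Antisense and intergenic long noncoding RNA genes were followed in human SH-SY5Y neuroblastoma cells exposed to okadaic acid for 12 h. Okadaic acid, made by dinoflagellates, blocks the protein phosphatases PP2A and PP1. Members were all genes whose platform symbol ends in AS and a digit (antisense to the gene named first) or consists of LINC and a number (intergenic), each represented by its brightest probe set. The rule gave 1303 of the 22465 genes with a symbol of their own, of which 761 were antisense and 542 intergenic. The results below concern the 135 members, 80 antisense and 55 intergenic, in which at least 1 group mean exceeded the background level. That level was 5.82 on the log2 intensity scale, the 95th percentile of the 23 background probe sets of the array. Just above it stood ZEB1-AS1, STPG3-AS1 and TNKS2-AS1, each with a highest group mean of 5.83. Just below it stood LINC00472 at 5.79, LINC00869 at 5.77 and F10-AS1 at 5.76.

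The data comprised 9 single-colour arrays, 3 each of untreated cells, cells given 20 nM and cells given 60 nM okadaic acid, all kept in fluid with 4% FBS during the exposure. The arrays are called biological replicates, but nothing states that they came from separate cultures, so the p-values below reflect only how far these arrays differ, which may be technical. The labels of the 60 nM arrays conflict: 60 nM stands in their source name and in the design text, and 20 nM in their treatment field. They are treated here as 60 nM. SH-SY5Y is 1 established line, and of its 13 measured noradrenergic markers only HAND1, GATA2 and GATA3 lay above background in each group, while TH, DBH, PHOX2A, CHGA and MYCN did not. Of other marker sets, 6 of 8 mesenchymal markers, 4 of 6 epithelial markers (KRT8, KRT18, KRT19 and KRT7), 0 of 3 leukocyte markers and 0 of 3 glial markers lay above background in each group. The summed log2 level of the mesenchymal markers was 65.8 to 66.6 at 60 nM and 63.8 to 64.0 in untreated cells, and its part in the results was not tested. In bulk RNA of this kind, fewer cells of a type and less RNA per cell cannot be told apart.

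Long noncoding RNAs are transcribed and usually spliced and polyadenylated like messenger RNAs but do not code for protein. Antisense RNAs are made from the strand opposite to a neighbouring gene, often from a shared, divergent promoter, and some act on that gene in cis. Others act in trans: OIP5-AS1, known as Cyrano, carries a conserved site that pairs with the microRNA miR-7 and, in mice, promotes its decay. LINC00632 is the locus from which the circular RNA CDR1as, which carries many miR-7 sites, is made. The array has 1 probe set named LINC00632 alone. Whether its probes also read the circular RNA is not given in the sources used here, and the circular RNA was not analysed separately.

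Promoter windows are shown for the 4 members that rose most and the 4 that fell most at 60 nM among those with a window, because the median base composition around the start was unlike in risen and fallen members. The windows come from RefSeq (build GRCh38.p14). They run from 250 bases before the annotated start to 50 bases after it and are written 5′ to 3′ on the strand of the gene. Capitals mark CG dinucleotides, and the transcript starts at base 251.
LINC00632, chrX:140709509-140709808, plus strand: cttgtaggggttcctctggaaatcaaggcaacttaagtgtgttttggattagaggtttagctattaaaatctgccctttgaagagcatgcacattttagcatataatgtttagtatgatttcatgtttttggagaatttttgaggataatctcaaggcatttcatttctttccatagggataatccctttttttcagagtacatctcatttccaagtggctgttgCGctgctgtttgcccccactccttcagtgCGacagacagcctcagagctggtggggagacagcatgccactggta
LINC01619, chr12:92142782-92143081, minus strand: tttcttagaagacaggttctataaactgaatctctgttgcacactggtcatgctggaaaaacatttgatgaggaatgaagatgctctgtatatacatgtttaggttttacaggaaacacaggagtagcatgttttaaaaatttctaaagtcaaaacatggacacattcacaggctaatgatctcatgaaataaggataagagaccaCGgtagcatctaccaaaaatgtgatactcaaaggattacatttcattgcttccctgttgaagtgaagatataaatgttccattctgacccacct
PSMD6-AS2, chr3:64003772-64004071, plus strand: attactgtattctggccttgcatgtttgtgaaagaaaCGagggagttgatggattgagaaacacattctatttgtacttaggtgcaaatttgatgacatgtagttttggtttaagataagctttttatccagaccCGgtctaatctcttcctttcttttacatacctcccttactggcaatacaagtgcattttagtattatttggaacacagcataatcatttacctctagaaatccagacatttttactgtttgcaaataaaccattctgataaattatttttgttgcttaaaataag
LINC00622, chr1:119599242-119599541, minus strand: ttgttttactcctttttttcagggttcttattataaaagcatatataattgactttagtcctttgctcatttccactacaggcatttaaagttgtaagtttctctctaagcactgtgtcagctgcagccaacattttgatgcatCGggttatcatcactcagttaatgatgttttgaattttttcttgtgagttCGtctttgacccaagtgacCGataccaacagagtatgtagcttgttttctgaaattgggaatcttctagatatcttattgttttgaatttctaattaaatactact
LINC02210, chr17:45620079-45620378, plus strand: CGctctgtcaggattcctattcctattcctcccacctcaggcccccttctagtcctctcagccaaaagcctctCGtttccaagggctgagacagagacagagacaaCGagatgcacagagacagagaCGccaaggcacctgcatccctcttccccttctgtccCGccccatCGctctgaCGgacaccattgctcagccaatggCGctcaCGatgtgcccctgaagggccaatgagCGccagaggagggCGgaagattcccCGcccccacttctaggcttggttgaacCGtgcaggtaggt
PITPNA-AS1, chr17:1516669-1516968, plus strand: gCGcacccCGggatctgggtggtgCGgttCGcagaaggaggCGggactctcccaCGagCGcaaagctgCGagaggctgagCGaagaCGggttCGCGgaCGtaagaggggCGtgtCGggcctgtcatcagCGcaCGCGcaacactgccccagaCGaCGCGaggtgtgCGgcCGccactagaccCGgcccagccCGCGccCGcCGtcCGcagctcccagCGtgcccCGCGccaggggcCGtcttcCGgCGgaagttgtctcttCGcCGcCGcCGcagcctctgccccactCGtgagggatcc
OIP5-AS1, chr15:41283740-41284039, plus strand: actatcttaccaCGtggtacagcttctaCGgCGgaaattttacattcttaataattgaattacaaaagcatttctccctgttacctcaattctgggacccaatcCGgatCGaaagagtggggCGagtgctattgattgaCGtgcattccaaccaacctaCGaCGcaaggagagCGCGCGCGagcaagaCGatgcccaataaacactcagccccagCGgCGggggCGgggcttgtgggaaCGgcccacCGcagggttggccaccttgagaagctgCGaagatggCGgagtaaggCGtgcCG
ZBED5-AS1, chr11:10857967-10858266, plus strand: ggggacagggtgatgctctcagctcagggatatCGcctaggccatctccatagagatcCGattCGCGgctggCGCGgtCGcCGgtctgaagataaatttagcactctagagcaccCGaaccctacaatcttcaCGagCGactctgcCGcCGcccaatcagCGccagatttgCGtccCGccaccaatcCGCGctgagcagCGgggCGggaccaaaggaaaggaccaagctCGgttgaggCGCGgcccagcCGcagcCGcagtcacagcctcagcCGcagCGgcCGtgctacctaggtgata
The 4 windows of risen members held 1 to 3 CG dinucleotides each, and the 4 windows of fallen members held 13 to 40. Windows not shown overlapped: those of the fallen LINC00294 and LINC01002 held 1 each, and those of the risen LINC00839 and LINC00941 held 9 and 21.

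Few members were detectable. The 135 members above background were 10.4% of the 1303, against 44.8% of all genes and 51.4% of protein-coding genes. The median level of the 135, averaged over the 9 arrays, was 6.73 on the log2 scale, against 7.90 in all genes above background, and 12 members exceeded a level of 10. Above background were 131 members in untreated cells, 127 at 20 nM and 121 at 60 nM, with 115 members in all 3 groups. Of the other 20, 2 were above it at 60 nM only (UGDH-AS1 and STPG3-AS1), 4 in untreated cells only and 10 in untreated and 20 nM cells. Current RefSeq annotation lists 126 of the 135 as lncRNA, 2 as antisense RNA, 4 as protein-coding and 3 as transcribed pseudogenes, so that a symbol of this kind does not always name a noncoding gene. Among these, MMP24-AS1 is now the coding gene MMP24OS, and LINC00266-1 and LINC00266-4P are pseudogenes of the SEPTIN14 family.

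The brightest member was LINC00273, with log2 levels of 15.79, 15.85 and 15.64 in untreated cells, 15.00, 14.86 and 15.04 at 20 nM and 16.72, 14.62 and 15.23 at 60 nM. Its 60 nM arrays spanned more than the whole distance between the other groups, and its within-group SD of 0.63 was the highest among the 135. After it came LINC01000, LINC02210, LINC01002, LINC00999, LINC01001, LINC00963 and LINC01061. LINC00963, known from prostate cancer, had 11.09, 10.78 and 11.16 in untreated cells, 10.98, 11.06 and 11.08 at 20 nM and 11.21, 11.20 and 11.33 at 60 nM, and its log2 difference of 0.23 at 60 nM did not pass the test (limma adjusted p = 0.147). LINC01001, LINC01002 and LINC01061 are related copies on 3 chromosomes. Their promoter windows shared 76.7% to 90% of their bases, and signal may be split among them. The median within-group SD of the 135 members was 0.119, against 0.107 in the 9927 other genes above background.

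Okadaic acid at 60 nM against untreated cells asks which of these RNAs respond to the higher dose. At 60 nM 39 of the 135 members passed the test, 7 higher and 32 lower. LINC00632 rose most, by 1.83 on the log2 scale, and LINC02210, PITPNA-AS1, LINC01963 and OIP5-AS1 fell most, with log2 fold changes of -1.48 to -1.26. The members called were 28.9% of the 135, whereas 41% of all 10062 genes above background were called and 21.2% of all 22465 genes. In members 5.19% were higher and 23.7% lower, and in all genes above background 14.9% were higher and 26.1% lower. The share called lower was therefore near that of other genes, and the share called higher was below it, with no test of either difference. The median log2 fold change was -0.10 over the members and -0.04 over all genes above background. The 3 arrays of 60 nM and the 3 untreated arrays did not overlap in 66 members (48.9%), against 58.5% of all genes above background. A call was an adjusted p under 0.05 from limma over all 22465 genes.

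**Figure D1:**
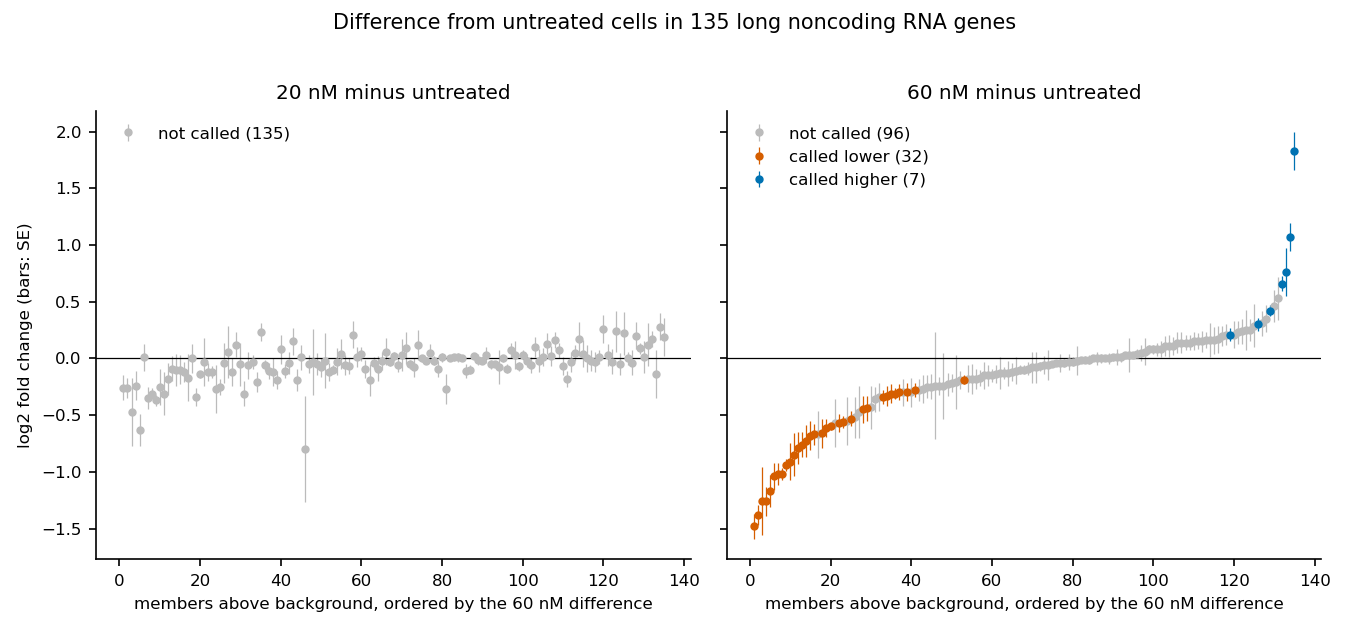
Log2 fold change (points, with SE bars from limma) of each of the 135 members above background at 20 nM (left) and 60 nM (right) against untreated cells, both in the order of the 60 nM difference. At 60 nM 32 members were called lower and 7 higher, and at 20 nM none of the 135 was called.

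In both classes most calls were lower, as in all genes above background (1495 higher, 2629 lower). Of the 80 antisense members 2 were higher and 19 lower (23.8%), with a median log2 fold change of -0.12. Of the 55 intergenic members 5 were higher and 13 lower (23.6%), with a median of -0.04. Both shares called lower were near the 26.1% of all genes above background. The share called varied with brightness. Among members with a highest group mean up to 6.5 it was 21.7%, against 31.1% of other genes of that level, and between 7.5 and 9 it was 40.7%, against 42.8%. Above 9 it was 31.6% of 19 members, against 46.1% of other genes, and no member of that level was called higher. In 46 of the 135 members at least 3 arrays shared the same value to 4 decimals, and 5 of these 46 were called (10.9%), against 11.7% of all genes above background with such values. Of the 89 members without such repeated values 34 were called (38.2%), against 56.7% of all genes of that kind. Among the 1168 members not above background 14 were higher and 19 lower (2.83% called), against 5.06% of all 12403 genes not above background, with folds that background limits.

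**Figure D2:**
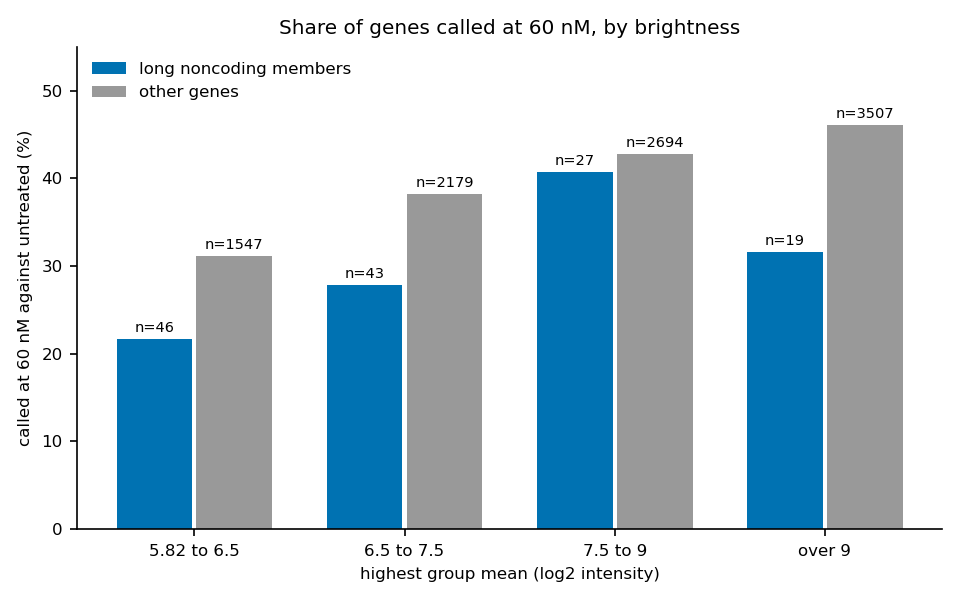
Share of genes called at 60 nM against untreated cells (y axis, percent) in 4 classes of highest group mean (x axis, log2 intensity) for members (blue) and all other genes (grey), with the number of genes above each bar. The blue bar stands below the grey bar in each class, by the least between 7.5 and 9 (40.7% against 42.8%).

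The risen members were led by LINC00632. Its log2 levels were 7.32, 7.05 and 6.65 in untreated cells, 7.08, 7.40 and 7.11 at 20 nM and 8.75, 8.87 and 8.89 at 60 nM. The 60 nM arrays lay apart from all 6 others, which overlapped among themselves. The log2 fold change against untreated cells was 1.83 (SE 0.17, limma adjusted p = 0.000305). LINC01619 had levels of 5.91, 5.61 and 5.41 in untreated cells, 5.80, 5.99 and 5.98 at 20 nM and 6.82, 6.66 and 6.66 at 60 nM. Its untreated mean lay under the background level and its 60 nM arrays well above it, and its log2 fold change was 1.07 (SE 0.12, limma adjusted p = 0.00093). LINC00622 rose likewise out of the background, with 5.70, 5.66 and 5.81 in untreated cells, 5.81, 5.94 and 5.95 at 20 nM and 6.42, 6.48 and 6.26 at 60 nM. All 3 untreated arrays lay under the background level, so that LINC00622 was at least 1.48-fold higher at 60 nM, with measured means of 6.38 at 60 nM and 5.72 in untreated cells (limma adjusted p = 0.000607). Such bounds set each dim array to the background level, and 7 of the 39 called members had a group under it on all 3 arrays.

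PSMD6-AS2, antisense to a gene for a subunit of the proteasome regulatory particle, had 7.23, 6.84 and 6.73 in untreated cells, 6.56, 7.25 and 6.58 at 20 nM and 7.86, 7.66 and 7.57 at 60 nM. All 3 arrays at 60 nM stood above the other 6, but those 6 were widely spread. Its log2 fold change was 0.76 (SE 0.21, limma adjusted p = 0.0437), and leaving out any 1 of untreated replicates 2 and 3, 20 nM replicates 1 and 3 or the 3 arrays at 60 nM ended the call, with adjusted p = 0.0548 to 0.136 and folds of 0.66 to 0.82. LINC00839 had 6.96, 6.99 and 7.06 in untreated cells, 7.13, 7.16 and 7.02 at 20 nM and 7.48, 7.35 and 7.43 at 60 nM, a log2 fold change of 0.42 (limma adjusted p = 0.00112). LINC00941, described in carcinomas, rose by 0.30 (limma adjusted p = 0.00958). Both lost their call with the arrays scaled to the hybridisation controls (adjusted p = 0.252 for LINC00839 and 0.664 for LINC00941). UNC5B-AS1, antisense to the netrin receptor gene UNC5B, had 6.44, 6.30 and 6.42 in untreated cells, 6.44, 6.29 and 6.44 at 20 nM and 6.56, 6.65 and 6.58 at 60 nM. Its small rise of 0.21 (limma adjusted p = 0.0336) was lost without any 1 of untreated replicates 2 and 3, 20 nM replicate 3 or the 3 arrays at 60 nM, with adjusted p = 0.0501 to 0.112.

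**Figure D3:**
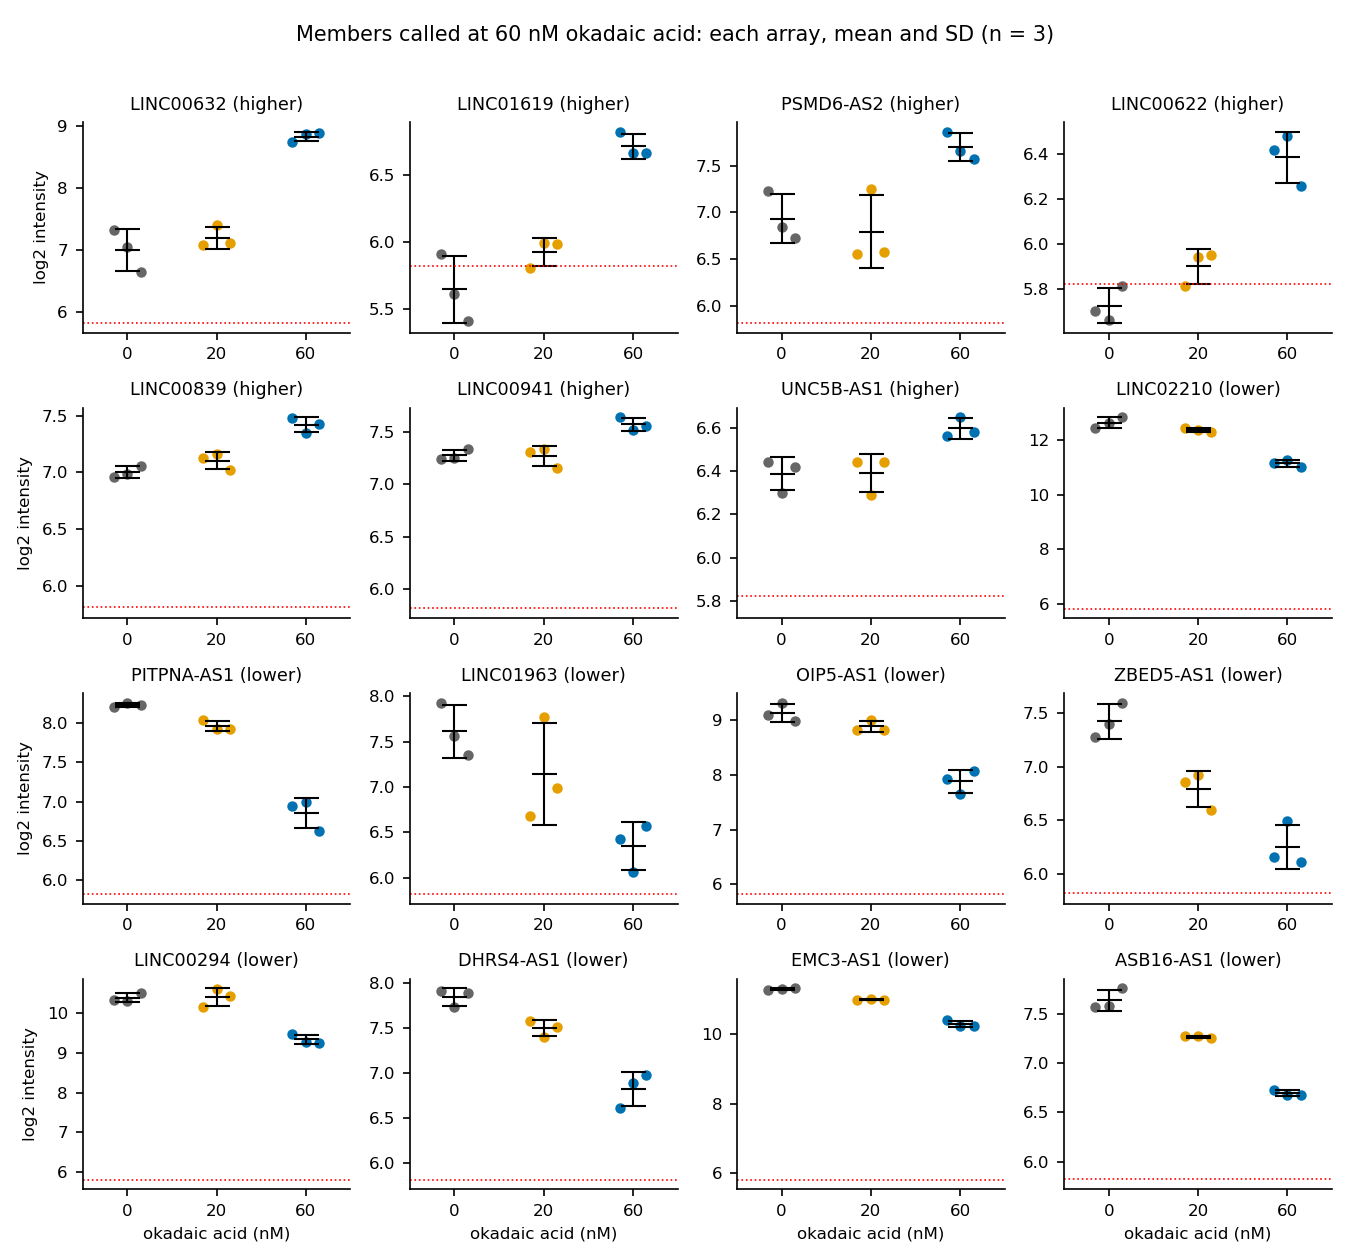
Log2 intensity (y axes, which differ) of the 7 members called higher and the 9 that fell most, on each array (points), with mean and SD (black, n = 3), at 0, 20 and 60 nM okadaic acid; the dotted line is the background level of 5.82. In all 16 the 3 points at 60 nM lie outside the range of the untreated points, because only members without such overlap were chosen. LINC00632 shows the largest rise.

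The fallen members included RNAs of high level. LINC02210, an intergenic RNA gene on chromosome 17, had 12.44, 12.64 and 12.84 in untreated cells, 12.46, 12.38 and 12.29 at 20 nM and 11.18, 11.27 and 11.02 at 60 nM. All 3 arrays at 60 nM lay more than 1 log2 unit under every other array, and the log2 fold change was -1.48 (SE 0.11, limma adjusted p = 0.000127). LINC02210 has 3 probe sets, of which the brightest is given. Under alternative processing, which included their mean, its fold ranged from -1.58 to -0.97 and the call held. OIP5-AS1, the Cyrano RNA, had 9.10, 9.32 and 8.98 in untreated cells, 8.83, 9.01 and 8.83 at 20 nM and 7.92, 7.65 and 8.07 at 60 nM. Untreated and 20 nM arrays overlapped, and the 60 nM arrays were all lower, with a log2 fold change of -1.26 (SE 0.13, limma adjusted p = 0.000491). LINC00294 had 10.32, 10.30 and 10.51 in untreated cells, 10.15, 10.60 and 10.42 at 20 nM and 9.47, 9.28 and 9.25 at 60 nM, a log2 fold change of -1.04 (SE 0.12, limma adjusted p = 0.000995).

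In several fallen RNAs of both classes the mean at 20 nM lay between those of untreated and 60 nM cells. None was called at 20 nM against untreated cells. The intergenic LINC02210 and LINC02893 were among them, whereas the antisense DDX11-AS1 and FOXD2-AS1 were not. How common such an order was over all genes was not counted. Antisense examples follow. PITPNA-AS1, named after the gene of a phosphatidylinositol transfer protein, had 8.20, 8.26 and 8.23 in untreated cells, 8.04, 7.93 and 7.93 at 20 nM and 6.94, 6.99 and 6.63 at 60 nM. The 3 groups did not overlap, and the log2 fold change at 60 nM was -1.38 (SE 0.09, limma adjusted p = 7.09e-05). EMC3-AS1, named after a subunit gene of the endoplasmic reticulum membrane protein complex, had 11.27, 11.29 and 11.31 in untreated cells, 10.97, 11.00 and 10.97 at 20 nM and 10.39, 10.23 and 10.22 at 60 nM. Replicates lay within 0.2 of each other in each group, and the fall of 1.02 on the log2 scale had the smallest adjusted p of the 135 members (limma, 1.75e-05). ASB16-AS1 had 7.57, 7.58 and 7.76 in untreated cells, 7.27, 7.27 and 7.25 at 20 nM and 6.73, 6.68 and 6.68 at 60 nM, a log2 fold change of -0.94 (limma adjusted p = 3.83e-05). ZBED5-AS1 had 7.28, 7.40 and 7.60 in untreated cells, 6.86, 6.92 and 6.60 at 20 nM and 6.16, 6.49 and 6.11 at 60 nM, a log2 fold change of -1.17 (limma adjusted p = 0.000963). DHRS4-AS1, transcribed antisense to the DHRS4 dehydrogenase gene cluster, had 7.92, 7.74 and 7.89 in untreated cells, 7.58, 7.41 and 7.52 at 20 nM and 6.61, 6.89 and 6.98 at 60 nM. Its 3 groups did not overlap either, and its log2 fold change was -1.02 (limma adjusted p = 0.000443). DHRS4-AS1 has 2 probe sets, of which the brightest is given. Under alternative processing, which included the mean of its probe sets, its fold ranged from -1.1 to -0.56 and the call held.

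CYTOR, listed on the array as LINC00152 and named for its part in the cytoskeleton, had 7.35, 7.38 and 7.31 in untreated cells, 7.18, 7.25 and 7.18 at 20 nM and 6.72, 6.75 and 6.77 at 60 nM, a fall of 0.60 on the log2 scale (LINC00152, limma adjusted p = 2.48e-05). LINC00857 fell to a mean of 5.69 at 60 nM, against 6.49 in untreated cells, and LINC00858 to 5.19 at 60 nM, against 6.10 in untreated cells. All their 60 nM arrays lay under the background level, so that LINC00857 was at least 1.59-fold lower and LINC00858 at least 1.22-fold lower (limma adjusted p = 0.00638 and 0.00679). LINC02893 had 8.64, 8.17 and 7.96 in untreated cells, 7.87, 8.24 and 7.74 at 20 nM and 7.43, 7.42 and 7.39 at 60 nM. Its log2 fold change of -0.85 (limma adjusted p = 0.0166) missed the threshold without any 1 of the 3 arrays at 60 nM (adjusted p = 0.0513 to 0.0562). LINC01963 had 7.93, 7.56 and 7.35 in untreated cells, 6.68, 7.77 and 6.99 at 20 nM and 6.43, 6.06 and 6.57 at 60 nM. The 20 nM arrays spanned the gap between the other groups. Its log2 fold change was -1.26 (SE 0.30, limma adjusted p = 0.0208), and the call, though not the fold (-1.30 to -1.10), was lost without untreated replicate 1 or 2 or 60 nM replicate 1 or 2 (adjusted p = 0.0566 to 0.0756). The other fallen members changed by -0.76 to -0.19 on the log2 scale and included LINC02985 (-0.76), LINC01002 (-0.73), NFYC-AS1 (-0.68), DDX11-AS1 (-0.66), LINC00339 (-0.56) and FOXD2-AS1 (-0.44). The 60 nM means of LINC02985 (5.71) and FOXD2-AS1 (5.75) lay under the background level, which limits their folds.

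Some widely studied members gave no call. FGD5-AS1 had 7.20, 7.20 and 7.20 in untreated cells, 7.12, 7.12 and 7.20 at 20 nM and 7.20, 7.28 and 7.20 at 60 nM, with repeated values and a log2 fold change of 0.03 (SE 0.03). EPB41L4A-AS1, a host of a small nucleolar RNA, differed by -0.09 (SE 0.06, limma adjusted p = 0.367). LINC00473, MAPT-AS1, GATA3-AS1 and LINC00467 did not exceed the background level in any group, nor did MAPT-IT1, which lies outside the symbol rule. TMPO-AS1 (-0.67, SE 0.21, adjusted p = 0.0632), LINC00342 (0.53, SE 0.19, adjusted p = 0.0954) and LINC00997 (0.46, SE 0.14, adjusted p = 0.0541) missed the limma threshold at comparable sizes of difference and were picked after their values were seen.

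Cells at 20 nM against untreated cells share the untreated arrays with the comparison above. No member passed the test at 20 nM (limma, 0 of 135, and 0 also with its trend and robust settings), where 0.0298% of all genes above background and 0.0223% of all genes did. At an unadjusted p under 0.05 there were 16 of the 135 members and 796 of the 10062 genes above background. The smallest adjusted p belonged to ASB16-AS1, with a difference of -0.37 (SE 0.05, limma adjusted p = 0.142) and no overlap between its 20 nM and untreated arrays given above. EMC3-AS1 followed with -0.31 (SE 0.05, adjusted p = 0.174), LINC00152 with -0.14 (SE 0.03, adjusted p = 0.404) and ZBED5-AS1 with -0.63 (SE 0.14, adjusted p = 0.412), in which the groups did not overlap either. In all, 17 of 135 members did not overlap at 20 nM (12.6%), against 9.17% of all genes above background. Without untreated replicate 3 ASB16-AS1 passed the test (-0.31, limma adjusted p = 0.0209), and without 60 nM replicate 1, which enters through the shared spread, EMC3-AS1 did (-0.31, limma adjusted p = 0.0212). The median log2 difference of the members was -0.03, and that of all genes above background was -0.00. LINC00273 had the largest difference, -0.80, with no overlap between its 20 nM and untreated arrays. Its SE of 0.47 comes from a spread shared with the 60 nM arrays, which vary widely, and it did not pass.

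Cells at 60 nM against cells at 20 nM share the 60 nM arrays with the first comparison and the 20 nM arrays with the second. Of the 135 members 31 passed, 8 higher and 23 lower, or 23% of members against 35.1% of all genes above background and 17.8% of all genes. Members were higher in 5.93% and lower in 17%, and all genes above background in 12.9% and 22.2%. All 7 members that were higher against untreated cells were also higher against 20 nM, and 23 of the 32 lower ones were also lower. PSMD6-AS2 and UNC5B-AS1 lost this call too without any 1 of several arrays (adjusted p = 0.0526 to 0.136). The largest differences were 1.64 for LINC00632 (limma adjusted p = 0.000736), -1.22 for LINC02210 (0.00044), -1.12 for PITPNA-AS1 (0.00028) and -1.05 for LINC00294 (0.00128). OSTN-AS1 was called in this comparison alone, with 6.74, 6.58 and 6.43 at 60 nM against 6.25, 6.30 and 6.22 at 20 nM (0.33, limma adjusted p = 0.0208). Its untreated arrays, at 6.42, 6.39 and 6.5, overlapped those at 60 nM, and the call was lost without 20 nM replicate 1 or 3 or 60 nM replicate 2 (adjusted p = 0.066 to 0.0715). Scaling the arrays to their hybridisation controls turned the split of 8 higher and 23 lower into 2 higher and 36 lower, as it lowered the median of all genes by 0.28.

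Whether antisense RNAs moved with the genes they are named after was asked over 54 pairs with both partners above background (of 80 antisense members, 73 had a measured partner). At 60 nM against untreated cells 28 pairs had no call on either side. Among these is HNRNPU-AS1 with HNRNPU, although current RefSeq annotation lists HNRNPU-AS1 under HNRNPU itself. Of the 54 partners 17 were called, against 41% of all genes above background. The antisense RNA alone was called in 9 pairs, the partner alone in 11 and both in 6. Of these 6, CHKB-AS1 with CHKB, DDX11-AS1 with DDX11 and LOXL1-AS1 with LOXL1 fell together, UNC5B-AS1 and UNC5B rose together, and 2 antisense RNAs fell while their partners rose. The fold changes of the pairs correlated weakly over the 54 pairs (Pearson r = 0.08, Spearman rho = 0.22), which share the same arrays. Neither the strand read by the probes nor an overlap of the targeted transcripts is given in the sources used here, so that signal from both strands cannot be told apart where the 2 transcripts overlap.

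LOXL1, a lysyl oxidase gene of elastic fibre assembly, averaged 7.58 at 60 nM and 8.96 in untreated cells (-1.38, SE 0.14, limma adjusted p = 0.000483). LOXL1-AS1, with all 60 nM arrays under the background level, was at least 1.18-fold lower. DDX11, a DNA helicase gene of sister chromatid cohesion, averaged 9.38 at 60 nM and 10.00 in untreated cells (-0.62, SE 0.10), close to the -0.66 of DDX11-AS1. UNC5B averaged 8.93 at 60 nM and 8.19 in untreated cells (0.74, SE 0.11, limma adjusted p = 0.00325), against 0.21 for UNC5B-AS1. In the opposite sense, PITPNA averaged 13.01 at 60 nM and 12.70 in untreated cells (0.31, SE 0.08, limma adjusted p = 0.0315) while PITPNA-AS1 fell. KTN1, which encodes the kinesin receptor kinectin, rose by 1.53 (SE 0.41, limma adjusted p = 0.0357) while KTN1-AS1 was at least 1.08-fold lower, with all 60 nM arrays under the background level.

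The partners of other fallen antisense RNAs gave no call. OIP5 averaged 8.67 at 60 nM and 8.97 in untreated cells (-0.30, SE 0.11, adjusted p = 0.116), EMC3 10.09 at 60 nM and 10.04 in untreated cells (0.05, SE 0.07), and ZBED5 7.90 at 60 nM and 7.92 in untreated cells (-0.02, SE 0.10). CIRBP, the cold-inducible RNA-binding protein gene, was the partner that fell most: it averaged 8.58 at 60 nM and 10.69 in untreated cells (-2.11, SE 0.05, limma adjusted p = 2.51e-06), and CIRBP-AS1 differed by 0.21 (SE 0.12, adjusted p = 0.321). UGDH, which encodes UDP-glucose dehydrogenase, rose by 1.20 (SE 0.06, limma adjusted p = 3.37e-05), and UGDH-AS1 differed by 0.21 (SE 0.09, adjusted p = 0.192). CIRBP, UGDH, KTN1 and LOXL1 were chosen after their values were seen.

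**Figure D4:**
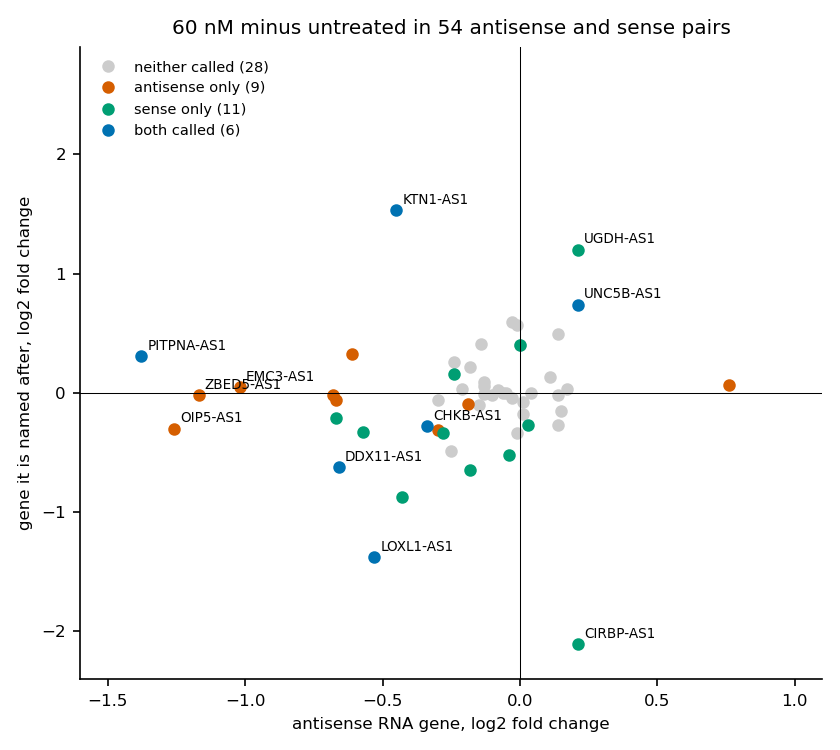
Log2 fold change at 60 nM against untreated cells of the antisense RNA (x axis) and of the gene it is named after (y axis) in the 54 pairs above background, coloured by which partner was called. The points follow no common line (Pearson r = 0.08): PITPNA-AS1, OIP5-AS1, ZBED5-AS1 and EMC3-AS1 lie far to the left with partners between -0.30 and 0.31, and CIRBP lies at -2.11 with CIRBP-AS1 at 0.21.

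Neighbours that start close by on the opposite strand, called head-to-head here whichever way the starts lie, were compared in the same way. RefSeq placed the start of a gene on the opposite strand within 1 kb of the start in 45 of the 106 members above background that have a promoter window (42.5%), against 28.7% of members not above background, 35% of protein-coding genes above background and 24.3% of all genes. In 30 of these head-to-head pairs the neighbour lay outside the symbol rule and both were above background. In 3 both fell (ARRDC1-AS1 with EHMT1, CHKB-AS1 with CHKB and DDX11-AS1 with DDX11) and in 1 they were called in opposite directions (KTN1-AS1 with KTN1). In 5 the member alone fell, in 5 the neighbour alone fell, in 1 the neighbour alone rose, and 15 had no call. Of all genes above background 41% were called in this comparison. Whether neighbours were called together more often than unpaired genes was not tested. NR2C2, a nuclear receptor gene, fell by 1.00 (SE 0.08, limma adjusted p = 0.000152) beside FGD5-AS1, which differed by 0.03. Pearson's r over the 30 pairs was 0.13.

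The windows of risen members were poorer in GC than those of fallen members, with overlapping ranges. The windows of the 7 risen members had a median GC content of 42.0% (33.0% to 66.0%), those of the 26 fallen members with a window 62.5% (45% to 84.3%), and those of the 73 members without a call 62.7%. The ratio of observed to expected CpG had a median of 0.24 in risen and 0.76 in fallen members. No risen member had a head-to-head neighbour, against 46.2% of the fallen members and 42.5% of the 106 members with a window. Class differed too: 5 of the 7 risen members are intergenic. Of the fallen members with such a neighbour, all but LINC00339 are antisense. The part of class in these contrasts was not tested. These are descriptions of few genes, and the same split was not seen over all genes above background, in which the median GC content was 67.3% in 1158 genes called higher and 65.7% in 2151 called lower.

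**Figure D5:**
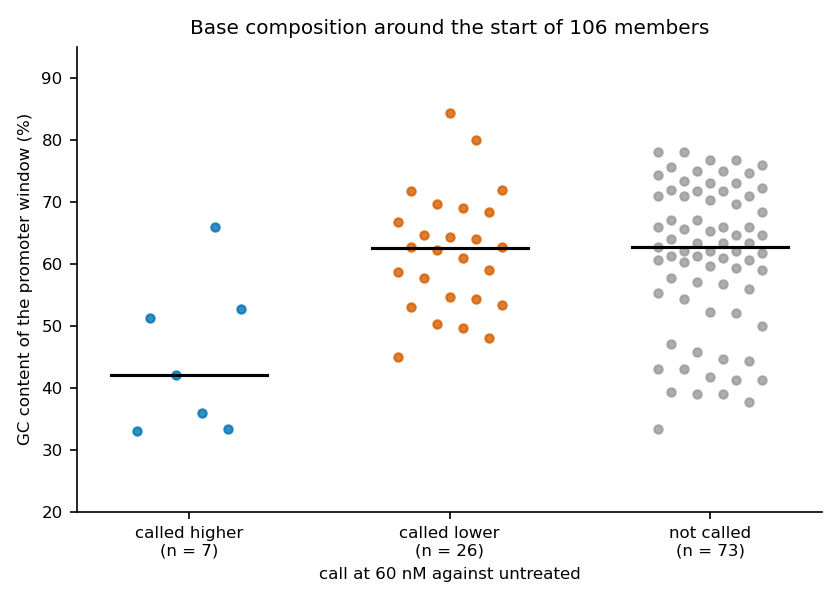
GC content (y axis, percent) of the 300-base RefSeq promoter window of each of the 106 members above background that have one, by call at 60 nM against untreated cells, with the median as a line. The risen members have a median of 42.0%, against 62.5% in the fallen members and 62.7% in members without a call.

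Windows of the 106 members were searched on both strands for 6 motifs and set against all 27305 windows and those of protein-coding genes above background. The AP-1 letters TGANTCA stood in 8.49% of members, 7.76% of all windows and 3.64% of coding genes. The CRE letters TGACGTCA stood in 4.72%, 1.98% and 3.68% of the same sets, and the E2F letters TTTNGCGC in 3.77%, 1.83% and 3.44%. The ETS letters CCGGAAGT stood in 3.77% of members, 4.44% of all windows and 10.1% of coding genes. The EGR letters GCGNGGGCG stood in 11.3% of members, OIP5-AS1 among them, which lay above the 9.28% of all windows and below the 16.3% of coding genes. The CArG box stood in none of the members, 1.29% of all windows and 1.14% of coding genes. Among the 7 risen members only UNC5B-AS1 held a match, to AP-1.

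Other long noncoding RNA genes, outside the symbol rule, were read from the same table. Of 22 small nucleolar RNA host genes 4 were measured and 3 lay above background: DANCR rose by 0.59 (limma adjusted p = 0.0181), SNHG17 fell by 0.42 (limma adjusted p = 0.00115) and SNHG8 differed by 0.02. Of 37 other named genes 23 were measured and 11 lay above background, of which FENDRR, a developmental regulator, was the only one called and was lower. FENDRR averaged 5.63 at 60 nM, with all arrays under the background level, and 6.91 in untreated cells (limma adjusted p = 0.000293). KCNQ1OT1, above background in no group, was called higher, with means of 5.75 at 60 nM and 4.29 in untreated cells (limma adjusted p = 0.0027). Background limits the folds of both. MALAT1, an abundant nuclear RNA, differed by 0.64 (SE 0.28, limma adjusted p = 0.175), and NORAD, which binds Pumilio proteins, by 0.05.

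Arrays differed within groups. The 20 nM replicate 2 was the highest array of its group in 68.1% of the 135 members and in 68.9% of other genes above background, and 60 nM replicate 1 in 60% and 63.6%. Untreated replicate 1 was the highest of its group in 48.9% of members and 38.2% of other genes, untreated replicate 3 in 36.3% and 47.6%, and 60 nM replicate 2 in 24.4% and 10.2%. A score that contrasts genes of chromosomes 16, 17, 19 and 22 with genes of chromosomes 4, 5, 13 and 18 was -0.0965 to -0.0315 at 60 nM, -0.0174 to 0.0426 at 20 nM and -0.0178 to 0.1186 in untreated cells, and thus moved with the 60 nM group. With it as a covariate 30 members were called at 60 nM against untreated cells, 5 higher and 25 lower, of which 26 were among the 39 called without it. Among those then no longer called by limma were PSMD6-AS2 (0.45, adjusted p = 0.387), UNC5B-AS1 (adjusted p = 0.143), LINC00857 (-0.67, adjusted p = 0.0781) and DDX11-AS1 (-0.68, adjusted p = 0.0688). Calls over all genes in this comparison also became fewer, with 3095 with the score as a covariate and 4752 without it. Because the score moved with the 60 nM group, this fit cannot fully separate the score from the dose.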

How the data were processed

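RNA was hybridised to 9 single-colour arrays. The deposited table holds 1 linear intensity per probe set and array, normalised by the authors with RMA, per the submitters' processing notes; the annotation build of the probes is not given in the sources used here. Intensities, deposited on the linear scale, were turned into log2 values without further scaling. Of 70523 probe sets 23781 name 1 gene and 1543 name several, which were left out; the brightest probe set stood for each of 22465 genes. limma 3.58.1 (R 4.3.3; lmFit and eBayes, group means over all 9 arrays) was run on all genes with Benjamini-Hochberg adjustment, and a call needed an adjusted p under 0.05. The code was tested on simulated data. Array precision is limited by the number of arrays, 3 per group.

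The members, lists and alternatives were chosen with earlier results of these data known. Named are members called with groups that do not overlap, up to 12 in each direction for 60 nM against untreated and up to 8 for the other comparisons, the 8 brightest, a fixed list of studied genes, and partners of named antisense genes. RefSeq names 1302 of the 1303 members. Arrays with the same replicate number did not deviate together (r of deviations from the group means, -0.673 to 0.117). Differences between whole arrays enter these values, so they cannot show whether the numbers pair samples, which the labels do not state. Alternatives were quantile, median and hybridisation-control scaling, a pseudocount, filters, other variance models, covariates and left-out arrays. Promoter windows are the first that RefSeq lists under a member's current name. For HNRNPU-AS1, LINC00444 and LINC00083 that name is HNRNPU, SUCLA2 and CLEC20A, so the windows of those genes were counted for them. Tables and figures were made with Python 3.11.15.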

Additional observations from a re-analysis of the deposited data

How the results depend on the processing

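Members above background numbered 135, and 263 with the level at the 90th percentile of the background probe sets. For 60 nM against untreated cells scaling to the hybridisation controls gave 24 calls (4 higher, 20 lower), 23 of them among the original 39; 11 members were higher when only genes with a group mean above background were tested, and 11 of 263 with the 90th percentile. For 20 nM against untreated cells 1 member was called, lower, without untreated replicate 3 and 20 nM replicate 2 (ASB16-AS1). For 60 nM against 20 nM hybridisation-control scaling gave 2 higher and 36 lower, the 90th percentile 14 higher, and the replicate block and the chromosome score 5 higher each. Over all genes this comparison had 4006 calls, and 3091 with that scaling, 2857 with the block and 3089 with the score. Hybridisation-control scaling moved the median of all genes by 0.29 at 20 nM against untreated cells and by -0.28 at 60 nM against 20 nM, with a median SE of 0.20. It turned UNC5B-AS1 at 60 nM against 20 nM to -0.075. The cause was not tested.

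With 1 array left out, calls at 60 nM against untreated cells ranged from 31 to 41 (higher 5 to 9, lower 24 to 33), at 20 nM from 0 to 1 (higher 0 to 0, lower 0 to 1) and at 60 nM against 20 nM from 24 to 31 (higher 5 to 12, lower 17 to 24). With the replicate block 31 of 39 calls held at 60 nM against untreated cells, and whether the numbers pair the samples is not stated. All genes together had 3800 calls with the block, against 4752 without it. Of 45 calls of named members 26 passed under every alternative run. Dim signal limits the data: most members lie at background, and folds of members near 5.82 are compressed.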
